A study of Mus musculus with 24 samples.

Results

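The 76 protein-coding genes whose symbol names a protein of the cytosolic ribosome were examined, out of 21883 protein-coding genes of the mouse gene table that lie on chromosomes with peaks. They were chosen by symbol alone (Rps or Rpl with a number, Rplp0 to Rplp2, and Rpsa), and 30 encode proteins of the small subunit and 46 proteins of the large subunit. Histone H3 acetylated at lysine 9 (H3K9ac) was mapped in day 5 embryoid bodies, the aggregates in which mouse embryonic stem cells of strain C57BL/6 begin to differentiate. Null embryoid bodies (Gcn5-/-, clones 4_C2 and 6_C4) were compared with floxed ones (Gcn5 fx/fx, clones 4_1 and 6_1), with 2 libraries from each clone. Clones 6_C4 and 6_1 form isolate pair 6, and clones 4_C2 and 4_1 form isolate pair 4, so that each genotype rests on 2 clones. No source used here says which part of the gene the null clones lack, and the peak lists do not check the deletion. Libraries of input DNA and of total H3, 16 of the 24 samples, were not used here.

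The ribosome is built from ribosomal RNA and one copy of almost every ribosomal protein, so that the genes of the small and the large subunit are expressed in step. Their genes are short, are transcribed at high rates in nearly every growing cell, and often begin at a terminal oligopyrimidine (TOP) run, a C followed by further pyrimidines, through which translation of the mRNA answers to growth signals. H3K9ac marks active promoters and the start of the transcribed region. Gcn5, the product of Kat2a, is a histone acetyltransferase that can place this mark as part of the SAGA and ATAC complexes. The series asks how the distribution of H3K9ac over the genome differs after loss of Gcn5 early in differentiation.

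The measurement was the covered length, the base pairs that a library's called peaks cover within a region. Regions were made by merging peaks of the 8 libraries that overlap by at least 1 bp, and 10171 of 26034 regions held a peak in all 8 lists. A gene was given the region within 1000 bp of either of its annotated ends with the largest mean covered length. The lists held 12041 to 18932 peaks in null and 13260 to 20809 peaks in fx/fx libraries, and sequencing depth is unknown. The median covered length of shared regions ran from 1798 to 2408 bp in the null and from 2113 to 2654 bp in the fx/fx libraries. Log2 covered lengths were therefore centred on each library's median, a step that takes out a shift of -0.14 between null and fx/fx and of 0.26 between pair 6 and pair 4. Marker genes were checked for a peak at either end. Of pluripotency and epiblast genes, Sox2, Fgf5, Pou3f1 and Dnmt3b had one in 4 null and 4 fx/fx libraries, Otx2 in 3 and 3, Pou5f1 and Nanog in 3 and 4, Zfp42 in 2 and 3, and Esrrb in 0 of either. Of germ layer genes, Mixl1 had one in 3 null and 3 fx/fx libraries, T in 2 and 2, Eomes in 2 and 4, Mesp1, Sox17, Foxa2 and Gata6 in 2 and 3, Gata4 in 1 and 0, Sox1 in 3 and 4, and Pax6 in 0 and 1. Of fibroblast genes, Col1a1 and Col1a2 had one in 0 null and 1 fx/fx libraries, Thy1 in 1 and 2, and Twist2 in 2 and 4. Of blood genes, Spi1 had one in 1 null and 2 fx/fx libraries, Tal1 in 4 of each and Ptprc in 0 of either. Their part in the results was not tested. In bulk chromatin, a mark in fewer cells and less of the mark in each cell cannot be told apart.

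Every ribosomal protein gene carried H3K9ac in every library. All 76 genes had a peak at an annotated end in each of the 8 lists, which held for 45.3% of protein-coding genes. The regions were also broad. Their mean covered length over the 8 libraries had a median of 3653.5 bp, against 2302.25 bp over all regions shared by the 8 lists, and 73 of the 76 lay above that value. With the region of each gene chosen in the same way, the median over 10115 protein-coding genes was 2489 bp. In lists described below, 21 products of TOP mRNAs had a median of 4103 bp and 29 ribosome assembly genes of 3307 bp. It was 2623 bp over 9 ribosomal proteins and paralogues outside the symbol rule, and 2372 bp over 75 mitochondrial ribosomal protein genes. The median member was broader than 87.3% of the shared regions. Small subunit genes had a median of 3780 bp and large subunit genes of 3533 bp. The 76 genes lie in 75 regions.

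**Figure D1:**
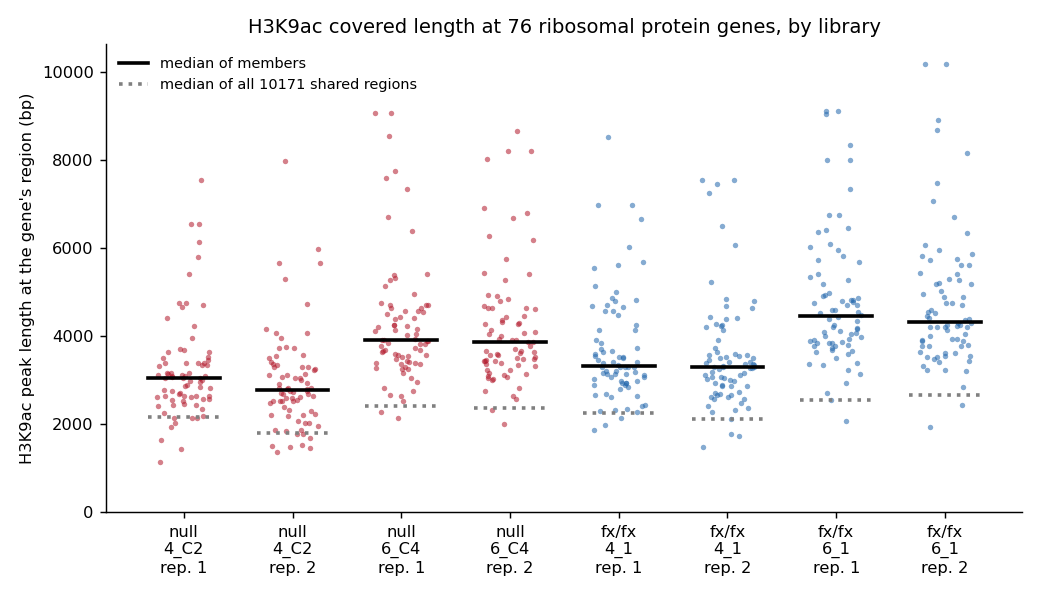
Covered length in base pairs (y axis) at the region of each of the 76 ribosomal protein genes (points) in the 4 null libraries (left, red) and the 4 fx/fx libraries (right, blue), with the median of the members (black line) and of all 10171 shared regions (dotted line). In every library the members' median lies above that of all regions, from 2768.5 to 3902.5 bp in the null and from 3294 to 4460 bp in the fx/fx libraries.

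The broadest region belonged to Rpl23a, whose protein lines the exit of the nascent peptide tunnel (chromosome 11, 78180935 to 78183584 on GRCm38.p6, the assembly with the primary sequence of mm10). Rpl23a covered 7544 and 7983 bp in the null clone 4_C2 and 7754 and 8646 bp in the null clone 6_C4, against 8531 and 7256 bp in the fx/fx clone 4_1 and 9048 and 8910 bp in the fx/fx clone 6_1. The genotypes overlapped, and the region also holds ends of the neighbours Nek8 and Tlcd1. Rpl35, which also sits at the tunnel exit, averaged 7112 bp in a region that it shares with Wdr38 and Arpc5l.

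The narrowest regions were those of Rps29, Rpl36a, Rps23 and Rps4x. Rps29, a small zinc-binding protein of the small subunit, covered 1465 to 2140 bp in the null and 1736 to 2136 bp in the fx/fx libraries, with a mean of 1922 bp that exceeded only 31.2% of shared regions. Rpl36a on chromosome X averaged 2228 bp and Rps23 averaged 2262 bp. These 3 were the members below the median of all regions. In all, 34 members shared their region with an end of another protein-coding gene and 42 had a region of their own, with median covered lengths of 3828 and 3416 bp. The region given to Rpl24, shared with Zbtb11, starts at 55971873, past the end of Rpl24 at 55971437. Its width and change are thus those of a region outside the gene.

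The acetylated domain took in most of the gene. Members had a median annotated length of 3169.5 bp, against 17170 bp for all protein-coding genes. The share of the annotated gene covered by peaks had a median over members of 71.5% in null and 84.0% in fx/fx libraries, and of 77.1% over all 8 libraries. Over the 9908 protein-coding genes with a peak in all 8 lists, the same share had a median of 7.67% in null and 8.56% in fx/fx libraries, and of 8.18% over all 8. These shares are not centred on library medians, so they include the genome-wide shift between null and fx/fx. Peaks covered 4 members wholly in every library, among them Rps27, Rps21 and Rplp1, and 19 members had a mean share over 90%. At the other end, 7 members were covered by less than 50%, with Rpl5 the least covered (28.1% in null and 35.2% in fx/fx libraries). Rpl5 spans 8498 bp and its protein forms, with Rpl11 and 5S ribosomal RNA, the particle that binds Mdm2 when ribosome assembly is disturbed.

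The promoters under these domains were read from the RefSeq promoter table (GRCm38.p6), which holds 56 of the 76 members. A TOP run, taken as a C followed by at least 4 bases that are each C or T and beginning within 5 bases of the annotated start on the coding strand, was found in 26 of the 56 (46.4%), against 18.8% of 17491 promoters. The letters CCGGAAG, the core that ETS factors such as Gabpa recognise, stood on either strand of the window from 250 bases before to 50 after the start in 22 (39.3%), against 11.9%. Both features were present in 14 members. AAGATGGC, the core of the YY1 site, was found on either strand in 5 (8.93% against 3.21%), and the Myc and Max E-box CACGTG in 5 (8.93% against 7.91%). TATAAA stood on the coding strand between 40 and 20 bases before the start in 0 of the 56, against 2.83% of promoters, and anywhere in the window on either strand in 6 (10.7% against 13.3%). The reverse complement of CCGGAAG opens with pyrimidines and could coincide with a TOP run, and CCGGAAG can share letters with AAGATGGC, but among members 0 of each overlap occurred. A match is a description of letters, not of binding. The median GC content of the 250 bases before the start was 57.4% in members and 55.2% in all promoters.

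The following sequences run from 60 bases before to 20 bases from the annotated start of genes named in the width comparison, none of which passed. After centring on library medians, Rps24, Rps10, Rpl12 and Rplp0 were among those with shorter coverage in null, and Rpl14, Rps6 and Rpl26 among those with longer coverage. In base pairs, Rps6 and Rpl26 averaged shorter in null. Capitals mark a TOP run and CCGGAAG. The windows lie at chr14:24490618-24490697 (+), chr17:27635225-27635304 (-), chr2:32961652-32961731 (+), chr5:115559407-115559486 (+), chr9:120571457-120571536 (+), chr4:86857348-86857427 (-) and chr11:68901506-68901585 (+), in the order of the lines.
Rps24: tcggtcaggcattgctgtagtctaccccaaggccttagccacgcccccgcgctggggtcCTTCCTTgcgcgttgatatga
Rps10: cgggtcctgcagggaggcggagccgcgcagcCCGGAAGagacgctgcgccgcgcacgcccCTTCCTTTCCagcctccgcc
Rpl12: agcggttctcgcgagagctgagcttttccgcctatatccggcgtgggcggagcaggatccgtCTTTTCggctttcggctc
Rplp0: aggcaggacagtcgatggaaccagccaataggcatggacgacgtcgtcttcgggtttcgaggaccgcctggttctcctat
Rpl14: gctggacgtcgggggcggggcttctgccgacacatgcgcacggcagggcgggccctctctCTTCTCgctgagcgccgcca
Rps6: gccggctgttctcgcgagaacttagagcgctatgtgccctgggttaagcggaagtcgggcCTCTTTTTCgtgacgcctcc
Rpl26: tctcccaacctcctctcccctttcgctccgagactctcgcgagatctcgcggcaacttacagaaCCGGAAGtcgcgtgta
The same stretch was read for 11 genes of low p, of which Rpl37a, Rps12, Rpl10 and Rpl23, not printed, have neither feature in it. A TOP run stands at the start of 5 of the 11, and Rps10 alone has both features in the stretch.

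The comparison of null with fx/fx embryoid bodies asked whether these domains differ in length after loss of Gcn5. No ribosomal protein gene passed: 0 of 76 were called narrower or wider in null by limma with Benjamini-Hochberg (BH) adjustment over all regions, as were 0% of the 10171 regions. The adjusted p-values of members were between 0.714 and 1.00. The centred log2 change of members had a median of -0.06, and 50 of 76 (65.8%) were below 0, against a median of 0.016 and 45.1% of all regions. The members' median was -0.03 without replicate 1 of 4_C2 or without replicate 2 of 4_1. Unadjusted limma p-values under 0.05 were found for 7 members with shorter coverage in null and 0 with longer coverage, where 3.22% and 3.72% of all regions had them. Among the 2544 regions with a mean of at least 2997 bp, 49.9% were below 0 with a median of 0.00012, and of the 65 members among them 44 were below 0 with a median of -0.06.

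The median lay below 0 in both isolate pairs. Within pair 6 the median change of members was -0.04 with 50 below 0, and within pair 4 it was -0.07 with 48 below 0. Both pairs were below 0 for 34 members (44.7%, against 21.1% of all regions). Both were above 0 for 12 of the 76 members, against 31.0% of all regions, and 30 members differed in sign. A test of the interaction of genotype and isolate pair called 0 members and 0% of regions. With all lists shortened to the same number of peaks by keeping the widest, the median was -0.06 and 53 members were below 0. Peaks were kept there by the measured length itself, so the step does not correct for depth. Without centring, 73 members were below 0 with a median of -0.20, which includes the shift of -0.14 between the library medians. Large subunit genes had a median of -0.06 with 32 of 46 below 0, and small subunit genes of -0.02 with 18 of 30 below 0.

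**Figure D2:**
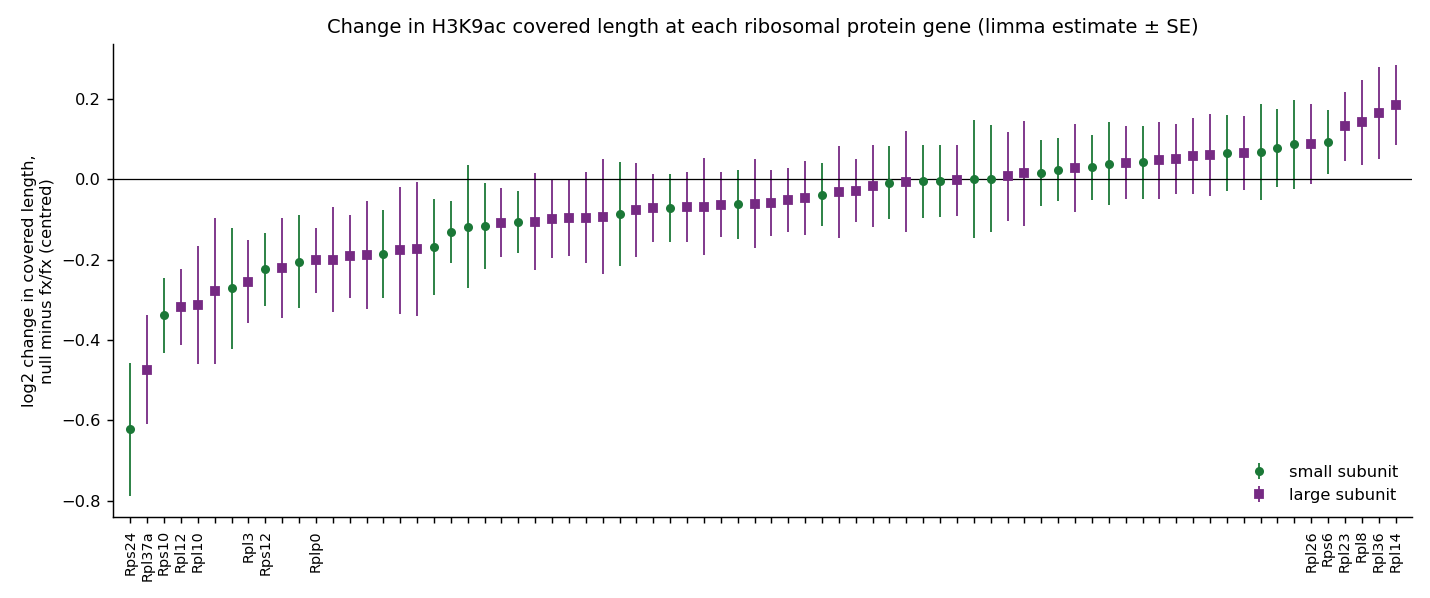
Log2 change in covered length, null minus fx/fx, centred on library medians (y axis), for each of the 76 genes (x axis, ordered by the change), with gene names at the 14 of lowest p, points for the limma estimate, lines for ± SE, circles for small subunit and squares for large subunit genes. Changes run from -0.62 at Rps24 to 0.18 at Rpl14, and 50 of the 76 lie below 0.

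The member with the most negative change was Rps24, a small subunit protein whose loss of function causes Diamond-Blackfan anaemia in humans (chromosome 14, 24490678 to 24496960). Rps24 covered 2451 and 1528 bp in clone 4_C2 and 4693 and 4271 bp in clone 6_C4 of the null genotype, against 4796 and 3504 bp in clone 4_1 and 6739 and 5417 bp in clone 6_1 of the fx/fx genotype. Within each pair both null libraries were shorter than both fx/fx libraries, while null pair 6 overlapped fx/fx pair 4. The log2 change was -0.62 ± 0.17 (SE, limma BH-adjusted p = 0.714). It was -0.31 within pair 6 and -0.94 within pair 4, and -0.48 without replicate 2 of 4_C2.

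Rps10, another small subunit protein, was the one member whose 4 null libraries all lay below the 4 fx/fx libraries in base pairs, where 2.42% of all regions did so and 0.0492% lay the other way round. Where 4 values are given for a genotype, the 2 of pair 4 stand before the 2 of pair 6. Rps10 (chromosome 17, 27630415 to 27635244) covered 3463, 3249, 3826 and 4637 bp in the null and 4663, 4641, 5672 and 6060 bp in the fx/fx libraries. The highest null and the lowest fx/fx library were 4 bp apart. The log2 change was -0.34 ± 0.09 (SE, limma BH-adjusted p = 0.714) and was -0.13 without replicate 2 of 6_1.

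After centring, the genotypes did not overlap at 3 members, Rps10, Rpl12 and Rpl3, with null the lower each time, where 0.954% of all regions had null lower and 1.51% had null higher. Rpl12, a protein at the base of the ribosomal stalk (chromosome 2, 32961712 to 32964045), covered 3525, 3217, 4941 and 3904 bp in the null and 5005, 4787, 5730 and 5612 bp in the fx/fx libraries. Only replicate 1 of 6_C4 reached the fx/fx range. The log2 change was -0.32 ± 0.09 (SE, limma BH-adjusted p = 0.714). Rpl3, which reaches into the peptidyl transferase centre (chromosome 15, 80077781 to 80083406), averaged 4208 ± 757 bp in the null and 5477 ± 587 bp in the fx/fx libraries (SD, n = 4 each), with a log2 change of -0.25 ± 0.10 (SE, limma BH-adjusted p = 0.716).

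The other members of low p with shorter coverage in null were Rpl37a, Rplp0, Rps12 and Rpl10. Rpl37a averaged 2247 ± 643 bp in the null and 3388 ± 827 bp in the fx/fx libraries (SD, n = 4 each), a log2 change of -0.47 ± 0.14 (SE, limma BH-adjusted p = 0.714). Rplp0, the stalk protein that carries Rplp1 and Rplp2, averaged 2471 ± 559 bp in the null and 3097 ± 547 bp in the fx/fx libraries (SD, n = 4 each; log2 change -0.20 ± 0.08, SE, limma BH-adjusted p = 0.716). Rps12 differed by -0.22 ± 0.09 (SE, limma BH-adjusted p = 0.716). Rpl10, which joins the large subunit late in its assembly and is encoded on chromosome X, covered 2679, 1369, 3365 and 3137 bp in the null and 2936, 2971, 3978 and 3875 bp in the fx/fx libraries. Its change was -0.31 ± 0.15 (SE, limma BH-adjusted p = 0.72), and -0.14 without replicate 2 of 4_C2, the library of 1369 bp and the shortest list.

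On the other side of 0, changes were smaller. Rpl14 covered 2883, 2290, 4374 and 4293 bp in the null and 2884, 2559, 3349 and 4386 bp in the fx/fx libraries, a log2 change of 0.18 ± 0.10 (SE, limma BH-adjusted p = 0.724). The genotypes overlapped over most of their range, and the change was 0.09 without replicate 1 of 6_1. Rpl36 changed by 0.16 ± 0.12, Rpl8 by 0.14 ± 0.11 and Rpl23, whose protein binds Mdm2, by 0.13 ± 0.09 on the log2 scale (SE, limma BH-adjusted p = 0.77, 0.784 and 0.762). Single libraries moved each of these: Rpl36 was at 0.06 without replicate 1 of 4_1 and 0.08 without replicate 1 of 4_C2, Rpl8 at 0.08 without replicate 2 of 4_C2 and 0.09 without replicate 2 of 4_1, and Rpl23 at 0.07 without replicate 1 of 4_1. Rps6, the target of the S6 kinases, averaged 3793 ± 628 bp in the null and 3878 ± 365 bp in the fx/fx libraries (SD, n = 4 each). Its centred log2 change was 0.09 ± 0.08 (SE, limma BH-adjusted p = 0.807), 0.05 without replicate 2 of 6_C4, and -0.04 without centring. Rpl26 had 0.09 ± 0.10 (SE, limma BH-adjusted p = 0.855), between 0.03 without replicate 2 of 6_1 and 0.14 without replicate 1 of 6_1, and -0.05 without centring. Rpl23 and Rpl26 lie on chromosome 11, where 960 regions had a median change of 0.08 and the 7 members of 0.06. On the remaining chromosomes the medians were 0.0098 over regions and -0.07 over 69 members.

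Other members known for roles outside translation or in disease had log2 changes between -0.19 and 0.04. Rpl11, which binds Mdm2 together with Rpl5, averaged 2806 ± 735 bp in the null and 3489 ± 805 bp in the fx/fx libraries (SD, n = 4 each), a log2 change of -0.19 ± 0.13 (SE, limma BH-adjusted p = 0.773). Rpl5 changed by -0.10 ± 0.10 and Rpsa, also known as the laminin receptor precursor, by -0.12 ± 0.11 (SE, limma BH-adjusted p = 0.833 and 0.823). Rps19 and Rps14, which are affected in human Diamond-Blackfan anaemia and in the human 5q- syndrome, had log2 changes of 0.04 ± 0.10 and -0.0086 ± 0.092 (SE, limma BH-adjusted p = 0.951 and 0.988). Rps27a, made as a fusion with ubiquitin, was at -0.0044 ± 0.089 (SE, limma BH-adjusted p = 0.994), with 3057 ± 142 bp in the null and 3369 ± 168 bp in the fx/fx libraries (SD, n = 4 each). The acidic stalk proteins Rplp1 and Rplp2 had log2 changes of 0.03 ± 0.11 and -0.11 ± 0.09 (SE, limma BH-adjusted p = 0.965 and 0.796).

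To see on which side of the start the covered length differed, the peak that covers the annotated start was measured upstream and downstream of it, for the 52 of 56 members, among 7612 genes, whose start lies in a peak in all 8 lists. The downstream reach was not cut at the far end of the gene, so it can run past a short gene. The domain lay mainly downstream of the start: the downstream reach had a median over members of 2402.5 bp, against 1467.25 bp over all 7612 genes, and the upstream reach of 1229 bp, against 890.25 bp. Downstream exceeded upstream in 49 of the 52 members (94.2%), against 82.4% of all genes.

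Downstream, most members had a shorter reach in null. The median over members was 2154 bp in the null and 2642 bp in the fx/fx libraries, where that over all genes was 1399.88 and 1530.5 bp, and the centred log2 change had a median of -0.09 with 41 of 52 below 0 (78.8%), against a median of 0.0056 and 48.3% of all genes. Of the 1903 genes whose peaks reach at least 1862 bp downstream, 56.3% were below 0, and of the 44 members among them 37 were. Within pair 6 the median of members was -0.09 and within pair 4 it was -0.14, with 38 below 0 in each and 28 below 0 in both (53.8%, against 23.7% of all genes). In limma with Benjamini-Hochberg adjustment over 7612 genes, 0 members and 0% of genes were called in either direction. At an unadjusted p under 0.05 there were 6 members lower in null and 0 higher, against 3.34% and 2.9% of genes. The 4 null libraries all lay below the 4 fx/fx libraries after centring at Rpl12 and Rpl13, and at 0.88% of genes, and all lay above at 0 members and 1.48% of genes.

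Upstream, the share of members below 0 was near that of all genes. The reach was 1193 bp in the null and 1237 bp in the fx/fx libraries as the median over members, and the centred log2 change had a median of 0.04 with 21 of 52 below 0 (40.4%), against 43.8% of all genes. Without replicate 2 of 4_C2 that median was -0.02 with 27 below 0. No member was called, against 0% of genes, and unadjusted limma p-values under 0.05 were found for 2 members lower and 4 higher in null, against 2.25% and 1.87% of genes. After centring, all null libraries lay above all fx/fx libraries at 2 members, against 1.43% of genes, and below at 0, against 0.723%. Whether the downstream and the upstream changes of members differ was not tested. Pair 6 minus pair 4, the centred downstream reach of members had a median log2 difference of 0.23 with 48 of 52 above 0. Over all genes the median was -0.016 with 3577 of 7612 above 0. Limma called 3 members and 89 genes longer in pair 6, and 0 members and 17 genes shorter. Upstream, members had a median of 0.02 with 27 above 0 and 2 called longer, against -0.04, 3261 and 35 over all genes.

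**Figure D3:**
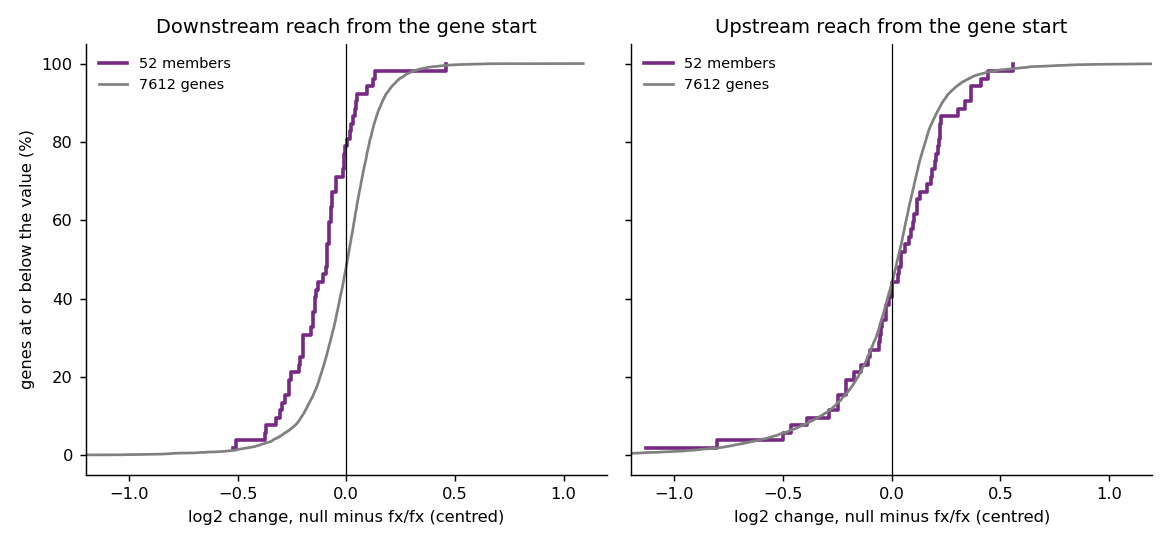
Cumulative share of genes in percent (y axis) at or below a given log2 change, null minus fx/fx, in the reach of the peak downstream (left) and upstream (right) of the annotated start (x axis), for 52 ribosomal protein genes (purple) and all 7612 genes measured (grey). Downstream the members' curve lies left of that of all genes, with 78.8% of members and 48.3% of genes below 0, and upstream the shares are 40.4% and 43.8%.

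Rpl4, a large subunit protein that lines the nascent peptide tunnel, had the lowest p downstream (chromosome 9, 64173387 to 64178562). Its peak reached 1460, 1574, 2746 and 2575 bp into the gene in null and 2355, 2127, 3733 and 3526 bp in the fx/fx libraries, with both null libraries below both fx/fx libraries in each pair. The log2 change was -0.37 ± 0.09 (SE, limma BH-adjusted p = 0.789), while the upstream reach averaged 2262 ± 569 bp in the null and 2456 ± 370 bp in the fx/fx libraries (SD, n = 4 each) with a log2 change of 0.0015 ± 0.15 (SE, limma BH-adjusted p = 0.998). Pair 6 minus pair 4, the downstream reach of Rpl4 differed by 0.51 on the log2 scale (limma BH-adjusted p = 0.0324).

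The peak of Rplp0 extended 1740, 1486, 2337 and 2592 bp downstream in null and 2177, 2435, 3148 and 3156 bp in the fx/fx libraries, again with null the shorter in each pair. The downstream log2 change was -0.30 ± 0.08 (SE, limma BH-adjusted p = 0.789), and the upstream reach averaged 431 ± 47.9 bp in the null and 367 ± 125 bp in the fx/fx libraries (SD, n = 4 each). The upstream log2 change was 0.37 ± 0.19 (SE, limma BH-adjusted p = 0.885). Rpl10 reached 1128, 1053, 1628 and 1425 bp downstream in null and 1371, 1499, 1989 and 2057 bp in the fx/fx libraries, a log2 change of -0.26 ± 0.08 (SE, limma BH-adjusted p = 0.789). Rps9, a small subunit protein at the entry of the mRNA channel, had a downstream change of -0.20 ± 0.07 (SE, limma BH-adjusted p = 0.789).

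Rps18 had the most negative downstream change, -0.52 ± 0.22 (SE, limma BH-adjusted p = 0.789). Its peak reached 1908, 2811, 3012 and 2842 bp in the null and 2315, 3401, 6213 and 5752 bp in the fx/fx libraries, so that the 2 libraries of clone 6_1 stood apart. Rps18 spans 3668 bp, so in clone 6_1 the peak ran past the gene, in a region that also holds ends of Wdr46, B3galt4 and Vps52. Covered length over its whole region overlapped between the genotypes, with 5413, 5977, 8548 and 6676 bp in the null and 6010, 7441, 8008 and 7473 bp in the fx/fx libraries. Rps12 had a downstream change of -0.37 ± 0.14 (SE, limma BH-adjusted p = 0.789) beside an upstream change of -0.05 ± 0.11.

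On the higher side downstream, Rpl41, which encodes a very short basic peptide of the large subunit, had 0.46 ± 0.30 (SE, limma BH-adjusted p = 0.804). Its peak reached 2640 to 2816 bp in the null libraries, against 913 bp in replicate 1 of the fx/fx clone 4_1 and 2656 to 2904 bp in the other 3 fx/fx libraries, so that 1 library stood apart. Rpl41 spans 1059 bp, so every reach but that of 913 bp ran past the gene. Rpl23, Rpl36a and Rps23 had downstream log2 changes of 0.13 ± 0.09, 0.05 ± 0.07 and 0.04 ± 0.08 (SE, limma BH-adjusted p = 0.804, 0.896 and 0.917).

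Upstream, the lowest p among members lower in null belonged to Rps24, with -0.39 ± 0.16, and Rpl10, with -1.13 ± 0.48 (SE, limma BH-adjusted p = 0.885 for both). Rps24 reached 327 ± 113 bp upstream in null and 519 ± 216 bp in the fx/fx libraries (SD, n = 4 each). Rpl10 reached 126, 315, 1736 and 1711 bp upstream in the null and 1564, 1471, 1988 and 1817 bp in the fx/fx libraries, so that the 2 libraries of clone 4_C2 stood apart. Rpl12 and Rps21 followed with -0.46 ± 0.22 and -0.21 ± 0.13 (SE, limma BH-adjusted p = 0.885 for both). Among members higher in null, Rps6 reached 1971 ± 290 bp upstream in null and 1692 ± 122 bp in the fx/fx libraries (SD, n = 4 each), a log2 change of 0.34 ± 0.11 (SE, limma BH-adjusted p = 0.885). Rpl26 had 1080 ± 49.7 bp in the null and 879 ± 99.5 bp in the fx/fx libraries (SD, n = 4 each), a log2 change of 0.41 ± 0.14 (SE, limma BH-adjusted p = 0.885). At both genes the downstream reach differed the other way, by -0.14 ± 0.08 at Rps6 and -0.07 ± 0.10 at Rpl26 (SE, limma BH-adjusted p = 0.798 and 0.887). Rps15a and Rpl18 had upstream changes of 0.44 ± 0.17 and 0.30 ± 0.13 (SE, limma BH-adjusted p = 0.885 for both).

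**Figure D4:**
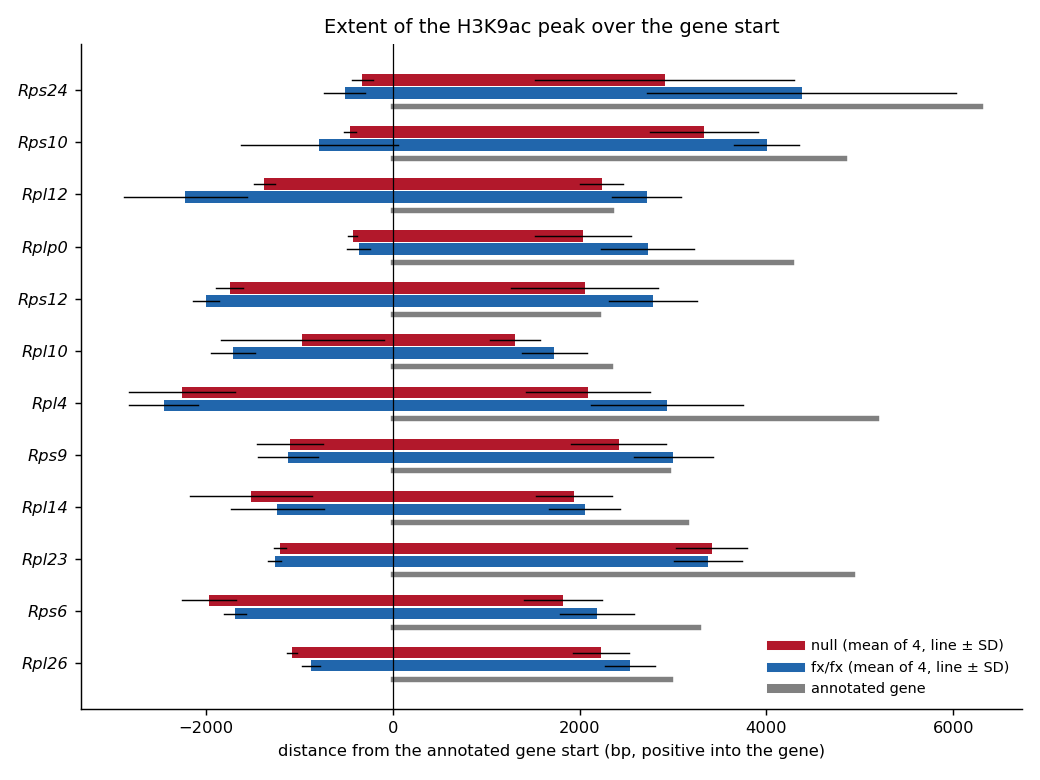
Mean extent of the H3K9ac peak on both sides of the annotated start of 12 ribosomal protein genes, in base pairs with positive values into the gene (x axis), in null (red, upper bar) and fx/fx libraries (blue, lower bar), with lines for ± SD over 4 libraries and grey bars for the annotated gene. The upper 8 genes were taken from those with shorter coverage or downstream reach in null. There the null bar ends nearer to the start on the downstream side, as at Rpl4 with 2089 bp in the null and 2935 bp in the fx/fx libraries. Below them it does so at Rpl14, Rps6 and Rpl26 and not at Rpl23. The lengths are not centred, so they include the genome-wide shift between null and fx/fx.

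After centring, most members had the longer coverage in isolate pair 6, and 4 passed the test, a share near that of all regions. Pair 6 minus pair 4, the centred log2 difference had a median of 0.19 over members with 62 of 76 above 0, against -0.02 and 46.2% of all regions. Limma with Benjamini-Hochberg adjustment called 4 members wider in pair 6, where it called 4.32% of all regions, and 0 narrower, where it called 2.52%. Among the 2544 regions with a mean of at least 2997 bp, 1457 were above 0 with a median of 0.04, and 257 were called wider. Of the 65 members among them, 54 were above 0 with a median of 0.18, and 3 were called wider. Rps4x, the X-linked gene for a small subunit protein, covered 3246 and 3306 bp in the null clone 6_C4 and 3145 and 4050 bp in the fx/fx clone 6_1, against 1136 and 1490 bp in the null clone 4_C2 and 1966 and 1465 bp in the fx/fx clone 4_1. The pairs did not overlap, and the log2 difference was 0.94 ± 0.15 (SE, limma BH-adjusted p = 0.00913). Rpl6, a large subunit protein, covered 4037 and 3650 bp in 6_C4 and 3935 and 4541 bp in 6_1, against 2602 and 2223 bp in 4_C2 and 2832 and 2653 bp in 4_1, a log2 difference of 0.39 ± 0.08 (SE, limma BH-adjusted p = 0.0222). At Rpl6 too the pairs did not overlap. The count was 2 without replicate 1 of 6_C4, without replicate 2 of 4_1 and without replicate 2 of 6_1, and no library took away the call of Rps4x. Rpl6 was not called without replicate 1 of 6_C4, either library of 4_1 or replicate 2 of 6_1 (limma BH-adjusted p 0.0511 to 0.073). The lists of pair 6 held 17849 to 20809 peaks and those of pair 4 held 12041 to 15315. With lists of equal length, again cut by keeping the widest peaks, 2 members were called.

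The 14 members below 0 in this comparison included all 7 on chromosome 11, among them Rpl23, Rpl26, Rpl19, Rpl23a and Rps27a, with differences from -0.24 to -0.06 and a median of -0.13. On that chromosome 89.8% of 960 regions were below 0, with a median of -0.25. On the remaining chromosomes 62 of 69 members were above 0 with a median of 0.20, where the regions had a median of -0.00015. The 4 members on chromosome X were above 0, from 0.32 at Rpl10 to 0.94 at Rps4x, and so were all 14 members on chromosome 7, with a median of 0.23.

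**Figure D5:**
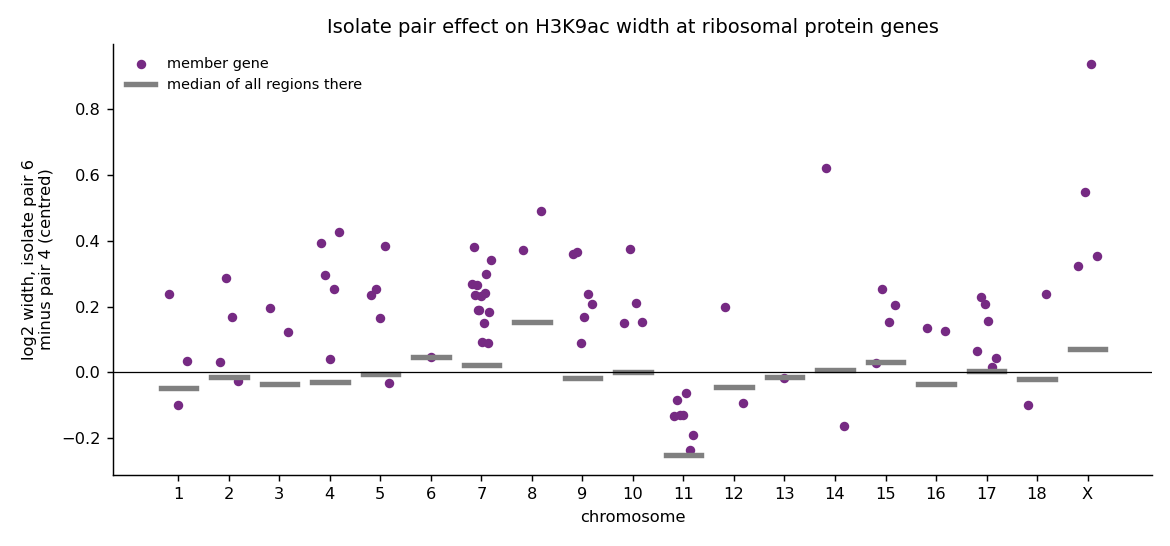
Centred log2 covered length, isolate pair 6 minus pair 4 (y axis), of each ribosomal protein gene (points) by chromosome (x axis), with grey bars for the median of all shared regions on the chromosome. The 7 genes on chromosome 11 lie between -0.24 and -0.06, where the regions' median is -0.25, and 62 of the other 69 genes lie above 0.

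Genes that work with the ribosomal proteins were followed in 3 lists, with mitochondrial ribosomal protein genes beside them. In the list of elongation and initiation factors and other products of TOP mRNAs, 21 of 22 genes had a region in all 8 lists, and 16 of the 21 had shorter coverage in null, with a median log2 change of -0.12 that was -0.06 without replicate 1 of 4_C2. Among them were Eef1a1, which delivers aminoacyl-tRNA, with -0.29 ± 0.11, and Eef2, which drives translocation, with -0.24 ± 0.10 (SE, limma BH-adjusted p over 10171 regions = 0.714 and 0.716). Eif3k, a subunit of the initiation factor eIF3, stood on the other side with 0.19 ± 0.11. Confined to 1000 bp on either side of the gene ends, the covered length of that list had a median change of 0.06.

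Ribosome assembly genes had shorter coverage in null at 22 of 29 with a median of -0.07, which was -0.02 without replicate 2 of 6_C4. Changes ran from -0.37 at Rrp9, a component of the U3 particle, to 0.47 at Pes1, a component of the PeBoW complex. Of the ribosomal proteins and paralogues that the symbol rule leaves out, 12 of 13 matched the gene table and 9 had a region in all 8 lists, 5 of them below 0 with a median of -0.02, which ran from -0.08 without replicate 1 of 6_1 to 0.00029 without replicate 1 of 6_C4. The 75 mitochondrial ribosomal protein genes tested had a median of 0.0049 with 37 below 0. Among all regions, 45.1% were below 0 with a median of 0.016. None of the genes in these lists passed the limma test between the genotypes after Benjamini-Hochberg adjustment. In pair 6 minus pair 4, 18 of the 21 products of TOP mRNAs were above 0, with a median of 0.18 and 5 called wider. Of the assembly genes, 24 of 29 were above 0 (median 0.06, 6 called wider). Above 0 were also 4 of the 9 ribosomal proteins and paralogues outside the rule (median -0.04, 1 called wider). For the mitochondrial genes it was 45 of 75 (median 0.03, 3 called wider). Among all regions, 46.2% were above 0 with a median of -0.02, and 4.32% were called wider. No comparison between the lists was tested.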

How the data were processed

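H3K9ac peak lists from 8 libraries of day 5 embryoid bodies were analysed, 4 null and 4 fx/fx. The authors deposited 1 list per library, not pooled, with the chromosome, start and end of each peak and no height or score. Per the submitters' processing notes, reads were handled with Bowtie 1.1.2 and MACS 1.4.2 on mm10. The calling threshold, the control library and the treatment of reads that align to several places, which matters for genes with processed pseudogenes, are among the steps not given in the sources used here. Since depth is unknown, widths have no counting interval, and deeper libraries can yield more and wider peaks. The strength of acetylation within a peak was not measured.

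Gene spans and promoters came from RefSeq tables of GRCm38.p6, which give no exons. Covered length per merged region was taken on the log2 scale, centred on the library median and tested with limma 3.58.1 in R 4.3.3, null minus fx/fx with isolate pair as a covariate, with Benjamini-Hochberg adjustment over 10171 regions at 0.05. A second fit added the interaction of genotype and pair. Upstream and downstream reach was tested in the same way on log2(bp + 100) over 7612 genes. The limma step was tested on simulated data. Python 3.11.15 was used with numpy 2.4.6, pandas 2.3.3, SciPy 1.17.1 and, for figures, matplotlib 3.10.9.

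The members, the gene lists and the tests were chosen with earlier results of these data known, so counts and medians over members carry no test. Members named with values are those called between genotypes, the 8 and 6 with the lowest p in each direction of width, the 4 widest and 4 narrowest, members known for a role outside translation, and up to 4 per direction with the lowest p in reach. Other members, such as those called between isolate pairs, Rpl13 and Rps18, and the genes named from the other lists were named after their values were seen. Some genes that these rules take are not reported here. No source names separate cultures for the replicates, so a p-value measures only the spread among these 8 libraries, which may be technical. Alternatives were no centring, no pair term, a replicate block, other merging, filters, pseudocount, windows and overlap, lists of equal length, each pair alone and each library left out.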

Additional observations from a re-analysis of the deposited data

Results flagged for a closer look

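Among the 39 ribosomal protein genes named with values, 78 groups of 4 libraries were searched for a library that stands apart, and 1 was found, which is fewer than the roughly 1 in 20 groups that chance gives. Rpl41 covered 5276 bp in null replicate 1 of clone 6_C4, against 3051 to 3118 bp in the other 3 null libraries. In fx/fx libraries Rpl41 covered 6025 and 5819 bp in clone 6_1 and 3490 and 2990 bp in clone 4_1. The region also holds an end of Zc3h10, and the centred log2 change of Rpl41, null minus fx/fx, was -0.17 ± 0.17 (SE, limma BH-adjusted p = 0.828).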

How the results depend on the processing

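The median width change of members stayed below 0 under all 19 alternatives run, and no alternative called a member between the genotypes. Without centring the median width change was -0.20, the median reach changes were -0.20 downstream and -0.094 upstream with 35 members below 0 upstream, and 54 members were called wider in pair 6. The count of 54 includes the shift of 0.26 between the pairs that centring takes out. The number of members called wider was 2 with equal-length lists and 1 within the gene-end windows. The share over all regions is not given here for these alternatives. With regions present in at least 4 lists and a pseudocount of 200 bp, 18 regions were called between the genotypes, none of them a member's. Leaving out 1 library gave a median width change of -0.07 to -0.03 with 44 to 61 members below 0, 0 to 1 regions called, 2 to 5 members called wider in pair 6, an upstream median of -0.02 to 0.11 and a downstream median of -0.13 to -0.07.

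Reversals without centring were Rpl23 at -0.0043, Rps6 at -0.043 and Rpl26 at -0.048. Within the gene-end windows Rplp0 was at 0.13, Rpl3 at 0.057 and Rpl26 at -0.017, and Rpl6 was at -0.066 between the pairs. The cause of the changes in these windows and with equal-length lists was not tested. In those windows members had a median of -0.02 with 44 below 0, and the ribosome assembly list had 0.02. With a replicate block the median width change was -0.06 and 0 members were called, and it changed no call between the genotypes. Replicate numbers were not taken as pairs, since deviations of same-numbered libraries from their group means correlated by 0.0624 in pair 6 and 0.109 in pair 4 over regions. A peak at an end was found in 73 to 75 members in all 8 lists with narrower windows, longer overlap or equal-length lists. Unknown depth limits all widths.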
